A study of Homo sapiens with 8 samples.

Results

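The 72 genes described here lie on the short arm of human chromosome 10 (10p). They are the protein-coding entries of the deposited gene table that start before position 39000000 of chromosome 10 and average at least 5 TPM (a length-corrected share of all transcripts of a library) in the control libraries of DU145 or of PC3, so they were chosen by their control levels. The table lists 57905 genes, of which 150 are protein-coding entries of this arm. Of the others on the arm, 71 stayed below that level in both lines, and 7 reached it but are among 10 genes that were set aside by name (VIM, ZEB1, IDI1, PFKFB3, PFKP, AKR1C1, AKR1C3, ITGB1, BMI1 and FZD8). The level was reached in both lines by 58 of the 72 genes, in DU145 alone by 6 and in PC3 alone by 8, and a gene that entered through only 1 line had to be higher there in the controls. Just above the level was ACBD7, an acyl-CoA-binding protein, with control means of 3.07 TPM in PC3 and 5.86 TPM in DU145. Just below it were OTUD1, a deubiquitinase, with 4.90 TPM in PC3 controls and 3.16 TPM in DU145 controls, and TAF3, a subunit of the general transcription factor TFIID, with 2.22 and 4.87 TPM. A further 11 genes that a newer annotation lists as coding carry another biotype in the deposited table and are described apart.

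RNA was sequenced in PC3 and DU145, established lines from a bone and a brain metastasis of prostate cancer. PC3 with a TRIB1 lentivirus, PC3 with an empty lentivirus (control), DU145 with the TRIB1 lentivirus and DU145 with the empty one gave 2 libraries each, 8 in all. TRIB1 encodes a pseudokinase that brings proteins to the ubiquitin ligase COP1. All 4 groups carry a lentivirus, and the promoter that drives TRIB1 and the number of clones behind each group are not stated. No uninfected cells were analysed.

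Genes of a chromosome arm share a position and not a task: on 10p, splicing factors, mitochondrial enzymes, Rab regulators, a VEGF co-receptor and cell polarity proteins stand side by side. Cancer lines often carry gains, losses and rearrangements of whole arms or of parts of them, and neighbouring genes can then differ together. Neighbours can also share a promoter region when they lie head to head on opposite strands. DNA copy number was not analysed here.

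TRIB1 itself was higher in both TRIB1 groups, at 241 and 245 TPM in PC3 TRIB1 against 45.1 and 50.8 TPM in PC3 controls, and at 69.4 and 62.3 TPM in DU145 TRIB1 against 10.1 and 7.94 TPM in DU145 controls. The values are TPM without library totals, so depth is unknown, and 19731 to 21335 genes per library reached 1 TPM. The second DU145 TRIB1 library stood apart, with 3.17% of its TPM in the short RNAs RN7SL1 and RN7SL2 against 1.266% to 2.239% in the other 7. Epithelial markers (KRT8, KRT18, EPCAM and CDH1) were present in all libraries, and their sum was 1585 and 1546 TPM in PC3 TRIB1 against 541 and 517 TPM in PC3 controls, and 1127 and 1056 TPM in DU145 TRIB1 against 1148 and 1199 TPM in DU145 controls. The part of either shift in the results below was not tested, and in bulk RNA fewer cells of a type and less RNA per cell cannot be told apart. Leukocyte markers summed to at most 2.72 TPM and endothelial markers to at most 0.287 TPM, while the fibroblast list summed to 38.4 to 69.6 TPM, nearly all of it COL1A1.

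In PC3, most 10p members that changed with TRIB1 fell, 16 of them among the 39 members nearest the telomere. That stretch was delimited by these same PC3 changes. In the middle of the arm 3 neighbouring members rose, of which COMMD3 and COMMD3-BMI1 have overlapping intervals. At an adjusted p below 0.05 (limma on log2(TPM + 1), Benjamini-Hochberg over 25982 genes), 18 of the 72 members fell and 5 rose, against 9.33% lower and 7.67% higher over all genes tested. That makes 23 of 72 changed in either direction, where 17.0% of all genes changed. All genes tested need not be coding or reach the members' level. Of 9648 other protein-coding genes at the same level, 1566 fell, 1173 rose and 6909 did not pass. The median log2 change over the members was -0.23, beside 0.10 over 301 genes of the long arm (10q) and -0.05 over 9648 other protein-coding genes at the same level. Both TRIB1 libraries lay below both controls for 39 of the 72 (29.8% of all genes) and above both for 16 (24.5% of all genes). For the 9648 other protein-coding genes these numbers were 3774 and 3044. With median-of-ratios scaling in place of TPM as deposited, 16 members fell and 8 rose.

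Going from the telomere, the first 39 members in a row, from ZMYND11 to HACD1 (listed starts 180405 to 17631958), all had a log2 change below 0 in PC3, from -1.38 to -0.0012. This run was delimited after the values were seen, so it is a description without a test. Its median log2 change was -0.42. In it 16 members fell and 23 did not pass the test, and both TRIB1 libraries lay below both controls for 33 of the 39. Since only changes below 0 make up the run, these counts partly follow from how it was delimited. Over all genes 9.33% fell, and 29.8% had both TRIB1 libraries below both controls. The 33 members after it had a median of 0.16, with 5 that rose and 2 that fell. Under the other settings tried, 37 to 39 of the 39 stayed below 0 and the median ran from -0.47 to -0.36.

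**Figure D1:**
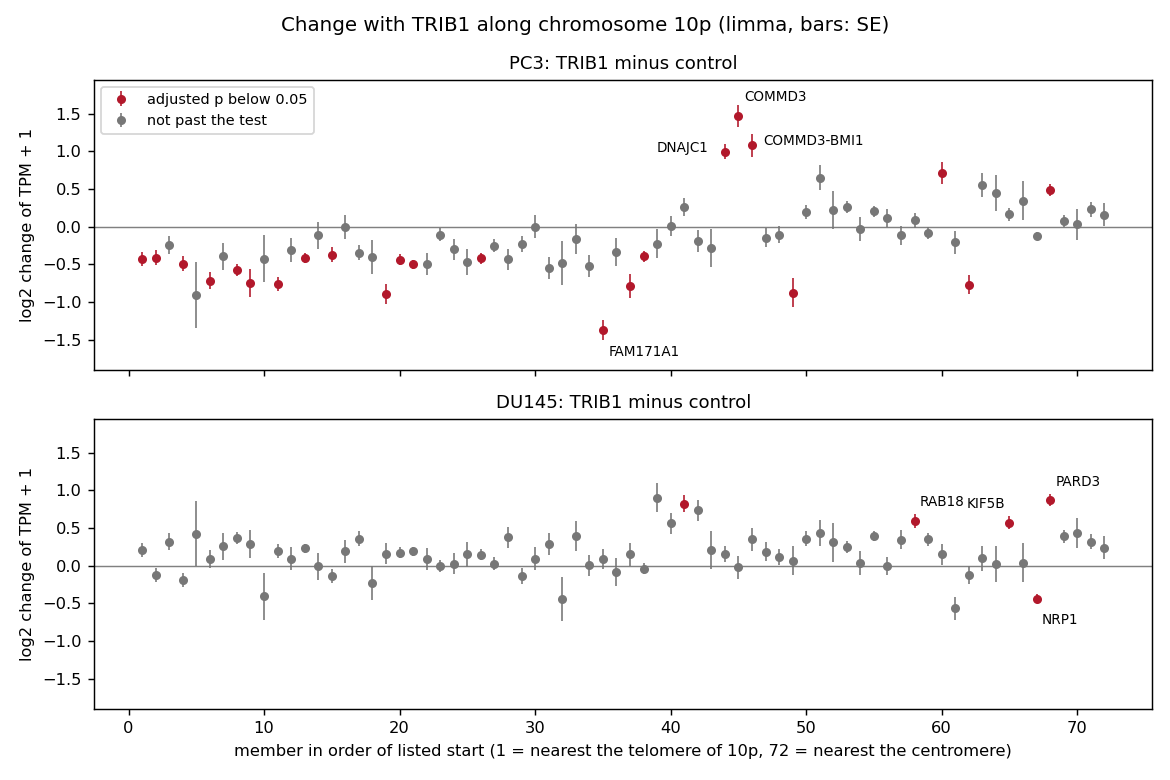
Log2 change of TPM + 1 with TRIB1 (vertical axis; upper panel PC3, lower panel DU145) for the 72 members in the order of their listed starts (horizontal axis); dots are limma estimates, bars their SE, n = 2 libraries a group. In PC3 the first 39 dots lie at or below 0 and COMMD3 is the highest at 1.47, while in DU145 56 of 72 dots lie above 0.

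Grouped in windows of 5 Mb from the telomere, the member medians in PC3 were -0.43, -0.50, -0.40 and -0.34 in the first 4 windows, from 5, 8, 19 and 9 genes. The next 4 windows had medians of -0.11, 0.11, 0.34 and 0.12, from 9, 11, 7 and 4 genes. On 10q the 18 windows with at least 5 genes had medians between -0.13 and 0.42, so none of them was as low as the first 4 of 10p. No window was tested.

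**Figure D2:**
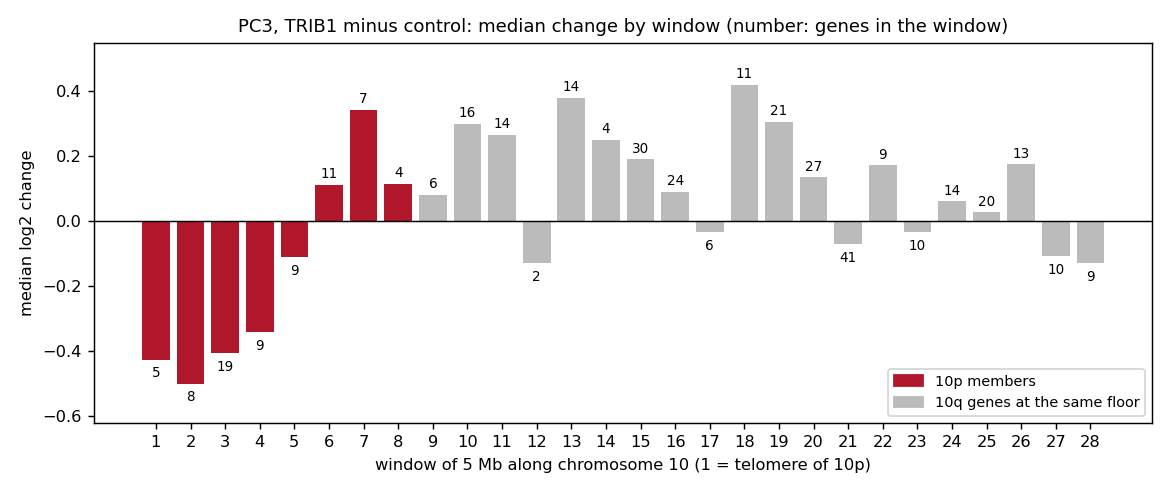
Median log2 change of TPM + 1 in PC3 (TRIB1 minus control, vertical axis) in 28 windows of 5 Mb along chromosome 10, numbered from the 10p telomere (horizontal axis); red bars are 10p members, grey bars 10q genes at the same level, and the number at each bar counts its genes. The first 4 bars are the lowest, at -0.34 to -0.50.

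The largest fall on the arm was in FAM171A1 (ENSG00000148468, minus strand, listed at 15253642 to 15413058), which encodes a single-pass membrane protein. It had 12.1 and 9.35 TPM in PC3 TRIB1 against 27.2 and 31.5 TPM in PC3 controls. Both TRIB1 libraries were far below both controls, a log2 change of -1.38 (SE 0.13, limma adjusted p = 0.0032). It was the 1 member that fell by a log2 of more than 1, where 2.67% of all genes did so and passed the test. In DU145 the gene had 34.0 and 33.6 TPM with TRIB1 against 31.8 and 31.8 TPM in the controls, a log2 change of 0.09 (adjusted p = 0.81).

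In membrane traffic, cytoskeleton and adhesion, the longest list, 7 of 19 members fell and 1 rose. Beside this, 9.33% of all genes and 1566 of 9648 other protein-coding genes at the members' level fell. GDI2, which extracts Rab GTPases from membranes, had 43.7 and 43.9 TPM in PC3 TRIB1 against 69.5 and 61.7 TPM in controls (log2 change -0.57, limma adjusted p = 0.0089). NET1, an exchange factor for the GTPase RhoA, had 79.1 and 65.8 TPM against 126 and 114 TPM (-0.72, adjusted p = 0.012). Neither gene's groups overlapped. SEC61A2, an alternative alpha subunit of the protein-conducting channel of the endoplasmic reticulum, had 5.52 and 6.20 TPM in PC3 TRIB1 against 12.9 and 10.7 TPM in controls (-0.89, adjusted p = 0.011). The other falls of the group, beside FAM171A1, were RSU1, a partner of the integrin-linked PINCH complex (-0.39), USP6NL, an activator of RAB5's GTPase (-0.37), and JCAD, a cell junction protein (-0.77). JCAD lies after the run and had 3.28 and 3.28 TPM in PC3 TRIB1 against 6.23 and 6.36 TPM in controls. The 1 rise of the group was PARD3, a scaffold of the cell polarity complex, with 68.2 and 64.2 TPM against 46.2 and 48.1 TPM (0.48, adjusted p = 0.014).

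Of 9 members in RNA processing and translation, 3 fell and 8 had a log2 change below 0. Among all genes 9.33% fell, and 5240 of 9648 other protein-coding genes at the members' level had a change below 0. The 8 lie in the run that was delimited by changes below 0, so their sign is no separate result. RBM17, a splicing factor, had 43.4 and 36.7 TPM in PC3 TRIB1 against 67.4 and 69.9 TPM in controls (log2 change -0.77, SE 0.09, limma adjusted p = 0.0057). CDC123, which helps assemble the initiation factor eIF2, had 46.9 and 44.2 TPM against 64.7 and 64.8 TPM (-0.50, SE 0.06, adjusted p = 0.0054). Both genes' TRIB1 libraries lay well below the controls. LARP4B, an RNA-binding protein of the La-related family, was the other fall (-0.41). UPF2, a core factor of nonsense-mediated decay, had 8.22 and 7.93 TPM against 10.5 and 10.5 TPM, a change of -0.35 that missed the threshold (adjusted p = 0.065).

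Among 14 members in metabolism and mitochondria 4 fell, none rose and 12 had a log2 change below 0. Most of the 12 lie in that same run. For comparison, 9.33% of all genes fell and 7.67% rose, and 5240 of 9648 other protein-coding genes at the members' level were below 0. ATP5F1C, the gamma subunit that turns inside mitochondrial ATP synthase, had 97.1 and 95.6 TPM in PC3 TRIB1 against 133 and 125 TPM in controls (log2 change -0.42, limma adjusted p = 0.0096). NUDT5, which hydrolyses ADP-ribose, had 26.0 and 28.7 TPM against 37.1 and 37.6 TPM (-0.44, adjusted p = 0.012). SEPHS1, a homologue of the enzyme that makes selenophosphate, had 56.0 and 50.8 TPM against 70.9 and 72.5 TPM (-0.42, adjusted p = 0.017). In all of them both TRIB1 libraries lay below both controls. PTER, a protein related to phosphotriesterases, was the other fall, with 3.24 and 2.94 TPM against 6.52 and 5.64 TPM (-0.79).

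Of 5 members in DNA replication, repair and mitosis, the helicase FBH1 fell, with 18.8 and 12.8 TPM in PC3 TRIB1 against 28.6 and 25.1 TPM in controls (-0.75, limma adjusted p = 0.043). DCLRE1C, the nuclease Artemis, had 6.66 and 5.99 TPM against 10.5 and 8.17 TPM, and MCM10, a replication initiation factor, 5.92 and 4.76 TPM against 7.15 and 6.42 TPM, and neither passed. Of 7 members in transcription and chromatin, ZMYND11, a reader of methylated histone H3.3 and the first member from the telomere, fell, with 8.28 and 8.12 TPM against 12.2 and 10.6 TPM (-0.43, adjusted p = 0.031). WAC, an adaptor for ubiquitination of histone H2B, had 52.6 and 47.5 TPM against 51.3 and 54.7 TPM, with groups that overlapped (-0.08). The 3 members in signalling (CCNY, IL15RA and CAMK1D) did not pass. Outside these lists WDR37 fell (-0.49), and so did KIAA1217 (-0.88), with 7.60 and 6.27 TPM against 15.9 and 11.5 TPM.

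The rises in PC3 stood at 3 neighbouring members, DNAJC1, COMMD3 and COMMD3-BMI1 (listed starts 22045466 to 22605317), and at BAMBI and PARD3 nearer the centromere. COMMD3 (ENSG00000148444, plus strand, 22604903 to 22609235), a subunit of the Commander complex for endosomal recycling, had 222 and 200 TPM in PC3 TRIB1 against 86.9 and 65.2 TPM in controls. The groups were far apart, a log2 change of 1.47 (SE 0.15, limma adjusted p = 0.0036). COMMD3-BMI1 had 98.8 and 76.4 TPM against 43.6 and 37.8 TPM (1.08, adjusted p = 0.0086). It is a readthrough transcript model whose interval overlaps COMMD3 and BMI1, so reads may have been shared, and the values of both are uncertain. DNAJC1, a J-domain co-chaperone of the endoplasmic reticulum, had 34.2 and 33.5 TPM against 16.4 and 16.5 TPM (1.00, SE 0.10, adjusted p = 0.0039). BAMBI, a pseudoreceptor that dampens TGF-beta signalling, had 15.7 and 15.4 TPM against 8.06 and 10.3 TPM (0.71, adjusted p = 0.024). COMMD3 and COMMD3-BMI1 were the members that rose by a log2 of more than 1 (2.52% of all genes), and with FAM171A1 they made 3 of 72, where 5.2% of all genes passed the test with such a change.

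**Figure D3:**
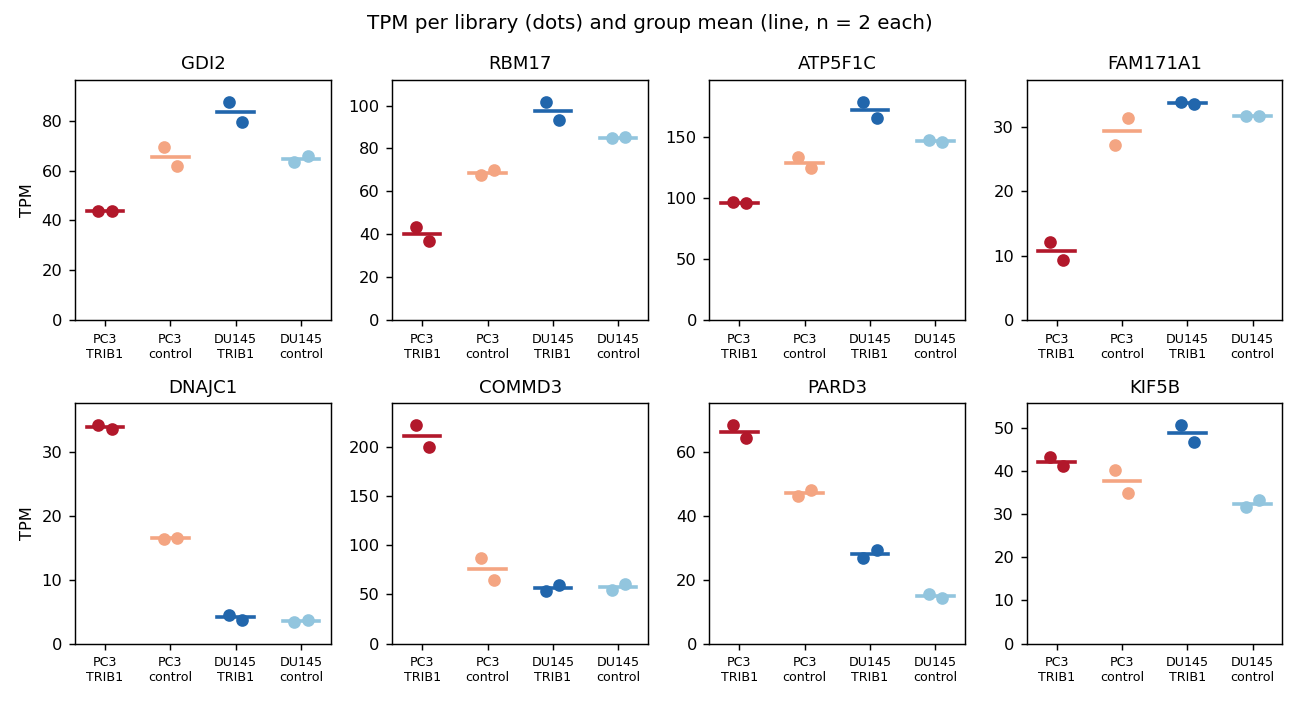
TPM (vertical axes, from 0) of 8 members in each library; dots are libraries, lines group means (n = 2), with PC3 TRIB1, PC3 control, DU145 TRIB1 and DU145 control from left to right. GDI2, RBM17, ATP5F1C and FAM171A1 are lowest in PC3 TRIB1, DNAJC1 and COMMD3 are highest there, and PARD3 is higher with TRIB1 in both lines.

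The count of PC3 calls depended on single libraries: without the first or the second PC3 TRIB1 library, 13 and 9 members changed (10 and 5 of them lower), and 11 fell without the first PC3 control. In a fit of the 4 PC3 libraries alone 11 members changed, 7 of them lower. COMMD3, FAM171A1, DNAJC1, RBM17, NUDT5 and CDC123 passed whichever of the 8 libraries was left out, and the other 17 lost the call in at least 1 of these fits. SEC61A2, JCAD, GDI2 and ATP5F1C lost it without either PC3 TRIB1 library, at adjusted p of up to 0.0688, 0.0527, 0.0552 and 0.0571. NET1 lost it without the second PC3 TRIB1 library or the first control (up to 0.0573), and WDR37, SEPHS1 and RSU1 without the second PC3 TRIB1 library or the second control (up to 0.0782, 0.0746 and 0.0549). COMMD3-BMI1 lost it without the second PC3 control (0.05), PARD3 without the first PC3 TRIB1 library (0.07) and PTER without any 1 of the 4 PC3 libraries (up to 0.111). KIAA1217, FBH1, BAMBI, ZMYND11, LARP4B and USP6NL lost it in 5 to 8 of the 8 fits, DU145 libraries among those left out, at up to 0.154, 0.163, 0.115, 0.11, 0.134 and 0.13.

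In DU145 5 of the 72 members passed the test. Of these 4 rose, PARD3, RAB18 and KIF5B among them, and NRP1 fell. Over all genes 2.72% changed, 0.712% higher and 2.01% lower. Of 9648 other protein-coding genes at the members' level, 100 rose and 362 fell. None of the 5 member changes exceeded a log2 of 1, so 0 of 72 were past both thresholds (limma, where 1.12% of all genes were). An unadjusted p below 0.05 was seen for 24 of 72. The unadjusted counts here and in later paragraphs have no share over all genes beside them, so nothing is read from them. The sign of the change was positive for 56 of 72 members, with a median of 0.17 beside 0.01 over the 10q genes and -0.07 over other protein-coding genes. It was positive for 155 of the 301 10q genes and 3597 of the 9648 other protein-coding genes. Both TRIB1 libraries lay above both controls for 41 of 72 members (17.6% of all genes) and below both for 10 (29.7% of all genes). The 39 members of the run that was low in PC3 had a median of 0.15 in DU145, with 28 above 0, and none passed the test there. The 33 members after the run had a median of 0.25, with 28 above 0, so positive signs were not particular to the run.

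PARD3 had 26.9 and 29.2 TPM in DU145 TRIB1 against 15.6 and 14.3 TPM in DU145 controls, a log2 change of 0.87 (SE 0.08, limma adjusted p = 0.009). RAB18, a Rab GTPase of the endoplasmic reticulum and lipid droplets, had 32.1 and 33.1 TPM against 21.3 and 21.2 TPM (0.60, adjusted p = 0.039). KIF5B, the heavy chain of the motor kinesin-1, had 50.5 and 46.7 TPM against 31.7 and 33.2 TPM (0.57, adjusted p = 0.037). In all of these the groups were clearly apart. NRP1, a co-receptor for semaphorins and VEGF, had 12.4 and 12.2 TPM against 17.5 and 16.5 TPM, with both TRIB1 libraries lower (-0.44, adjusted p = 0.024). HACD1, a dehydratase of fatty acid elongation, had 31.8 and 24.6 TPM against 14.2 and 14.9 TPM, a change of 0.90 that missed the threshold (adjusted p = 0.079). PARD3 was the 1 member that rose in both lines, against each line's own controls.

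The DU145 calls were few and moved with the setting. Leaving out 1 library gave 1 call without the second DU145 TRIB1 library (the one that stood apart) or the first DU145 control, and 2 without the first DU145 TRIB1 library, the second DU145 control or either PC3 TRIB1 library. PARD3 passed in each of these fits, while RAB18, KIF5B and NRP1 lost the call in 6, 6 and 4 of 8, at adjusted p of up to 0.152, 0.157 and 0.0624, each without at least 2 DU145 libraries. Limma on the 4 DU145 libraries alone gave 0 calls (28 members had an unadjusted p below 0.05), limma without a mean-variance trend gave 2, and protein-coding genes alone gave 14, of which 12 were higher.

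The change with TRIB1 differed between the lines for 14 members when the difference itself was tested (DU145 change minus PC3 change). It was higher in DU145 for 12 and lower for 2, against 4.01% and 5.36% of all genes, 9.37% in all. At the members' level it was higher for 667 and lower for 871 of 9648 other protein-coding genes. On 10q it was higher for 24 and lower for 22 of 301. The 12 were ZMYND11, NET1, GDI2, RBM17, ATP5F1C, UPF2, SEC61A2, NUDT5, CDC123, SEPHS1, FAM171A1 and NEBL, and all but NEBL lie in the run that was delimited by PC3 changes below 0. The tested difference contains that same PC3 change, so their place in the run is no separate result. CDC123 had the smallest p of the 12, with 101 and 95.4 TPM in DU145 TRIB1 against 86.4 and 85.3 TPM in DU145 controls, beside the PC3 values above (difference 0.69, SE 0.08, limma adjusted p = 0.01). GDI2 had 87.8 and 79.6 TPM in DU145 TRIB1 against 63.6 and 65.9 TPM in controls (difference 0.94, SE 0.12, adjusted p = 0.011). RBM17 had 102 and 93.3 TPM against 84.7 and 85.4 TPM there (difference 0.96, adjusted p = 0.014), and ATP5F1C 179 and 165 TPM against 148 and 146 TPM (0.65, adjusted p = 0.013). In these genes both TRIB1 libraries lay above both controls in DU145 and below both in PC3.

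The difference for FAM171A1 was 1.46 (SE 0.19, limma adjusted p = 0.011) and for NUDT5 0.61 (adjusted p = 0.021). NEBL, the actin-binding protein nebulette, had 4.77 and 6.04 TPM in DU145 TRIB1 against 2.94 and 2.74 TPM in controls, and in PC3 7.99 and 8.84 TPM against 9.17 and 10.4 TPM (difference 0.93, adjusted p = 0.047). The 2 with the opposite sign were COMMD3, with 53.9 and 59.3 TPM in DU145 TRIB1 against 54.1 and 60.9 TPM in controls (difference -1.49, adjusted p = 0.015), and DNAJC1, with 4.44 and 3.77 TPM against 3.43 and 3.70 TPM (-0.84, adjusted p = 0.025). For PARD3 a difference of 0.39 did not pass (adjusted p = 0.092).

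The number of such differences was 3 to 11 when 1 library was left out: 3 without the second DU145 control, 4 without the first, 6 without the second PC3 TRIB1 library, 8 without the second DU145 TRIB1 library, and 9 without the first DU145 TRIB1 library or the first PC3 control. CDC123, GDI2 and ATP5F1C passed in each of these fits, and the other 11 lost the call in at least 1. FAM171A1, RBM17 and NUDT5 lost it without either DU145 control (up to 0.0517, 0.0579 and 0.068), and COMMD3 and DNAJC1 without either DU145 control, either PC3 TRIB1 library and 1 more (up to 0.0656 and 0.0806). SEC61A2, SEPHS1, UPF2, NET1, ZMYND11 and NEBL lost it in 6 or 7 of 8 fits, at up to 0.0953, 0.0809, 0.0924, 0.114, 0.107 and 0.134. Limma without a trend gave 9 differences (7 higher), and protein-coding genes alone 27 (24 higher).

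Pairs of members that lie head to head can be set against each other. The listed intervals form 3 such pairs: KIN and ATP5F1C, with starts 148 bases apart, NUDT5 and CDC123, whose intervals overlap by 159 bases, and YME1L1 and MASTL, 465 bases apart. These distances hold for the listed starts alone. The promoters below use RefSeq starts, between which the distance or overlap can differ. The RefSeq promoters (GRCh38.p14, 250 bases before to 50 after the start) of 1 gene of each pair are shown, because each such stretch also faces the partner gene. Capitals mark matches on either strand to the motifs searched: GGGCGG (GC box), CCGGAAG (ETS), CGCATGCG (core of the NRF1 motif), CCAAT and TTGCGCAA (a C/EBP palindrome), none of which overlap each other here.
ATP5F1C, chr10:7787927-7788226, plus strand: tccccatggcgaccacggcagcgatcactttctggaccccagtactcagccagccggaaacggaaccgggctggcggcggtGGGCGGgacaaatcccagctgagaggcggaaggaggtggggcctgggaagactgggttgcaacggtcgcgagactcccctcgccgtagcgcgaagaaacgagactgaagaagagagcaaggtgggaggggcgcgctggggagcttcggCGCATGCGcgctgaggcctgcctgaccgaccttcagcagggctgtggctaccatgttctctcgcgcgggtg
CDC123, chr10:12195938-12196237, plus strand: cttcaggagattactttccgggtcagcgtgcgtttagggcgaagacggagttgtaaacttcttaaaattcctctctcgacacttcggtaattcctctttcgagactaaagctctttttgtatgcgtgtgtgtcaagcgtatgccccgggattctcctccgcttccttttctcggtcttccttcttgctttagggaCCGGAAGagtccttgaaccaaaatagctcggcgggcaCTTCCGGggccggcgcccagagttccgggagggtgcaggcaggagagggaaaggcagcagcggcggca
MASTL, chr10:27155102-27155401, plus strand: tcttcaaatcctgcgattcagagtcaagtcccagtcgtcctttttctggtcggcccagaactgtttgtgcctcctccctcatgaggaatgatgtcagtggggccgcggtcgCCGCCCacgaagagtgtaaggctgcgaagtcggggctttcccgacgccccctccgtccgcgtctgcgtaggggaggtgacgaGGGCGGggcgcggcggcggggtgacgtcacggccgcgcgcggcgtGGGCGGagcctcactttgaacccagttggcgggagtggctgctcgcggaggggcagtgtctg

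The ATP5F1C promoter holds 1 GC box and 1 NRF1 motif, the CDC123 promoter 2 ETS motifs and the MASTL promoter 3 GC boxes. A promoter was matched for 65 of the 72 members. The GC box letters were in 64.6% of these (45.0% of 35116 promoters of this length), the ETS letters in 18.5% (10.3%), the NRF1 letters in 9.23% (2.02%), CCAAT in 36.9% (34.6%) and the C/EBP palindrome in 0 of 65 (0.151%). The 35116 promoters were not limited to genes at the members' level, so the shares are unlike sets and nothing about 10p is read from them. A match is a description of letters and not of binding.

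Within the pairs, NUDT5 and CDC123 both fell in PC3, by 0.44 and 0.50 on the log2 scale, and the difference between the lines passed the test for both. In the KIN and ATP5F1C pair, ATP5F1C fell and KIN, a DNA- and RNA-binding repair protein, did not pass. KIN had 7.36 and 10.3 TPM in PC3 TRIB1 against 11.6 and 10.5 TPM in controls (-0.31, limma adjusted p = 0.25). YME1L1, a protease of the mitochondrial inner membrane, had 57.7 and 53.1 TPM in PC3 TRIB1 against 49.9 and 45.9 TPM in controls. MASTL, the mitotic kinase Greatwall, had 7.10 and 7.19 TPM against 6.99 and 6.11 TPM. Neither passed in either line.

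The lines themselves differed along the arm. This was tested between the TRIB1 groups of the lines, whose own values were not used to choose the members. The fit took its spread from all 8 libraries, and line differences in the controls can carry over, so the choice by controls may still act here. In a fit of the 4 TRIB1 libraries alone, 54 members differed, 19 higher and 35 lower in PC3. Between PC3 TRIB1 and DU145 TRIB1, 22 members were higher in PC3 and 36 lower at an adjusted p below 0.05, against 20.8% and 29.0% of all genes, 49.8% in all. At the members' level, 2941 of 9648 other protein-coding genes were higher and 3722 lower. On 10q, 75 of 301 were higher and 168 lower, so differences of this kind were common outside 10p too. With median-of-ratios scaling the member counts were 27 and 33. That scaling moved the median over all genes tested to 0.00, against -0.16 as deposited. In the run of 39 members, 34 were lower and 2 higher in PC3 TRIB1, with a median log2 difference of -1.18. The run was picked by low PC3 TRIB1 values against the controls, so this reuses those values. In the controls the run's median log2 difference between the lines was -0.49, given without a test. The 33 members after the run had 20 higher and 2 lower, and medians of 0.62 with TRIB1 and 0.77 in the controls. Among the 58 members at the chosen level in both lines, 16 were higher and 30 lower.

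**Figure D4:**
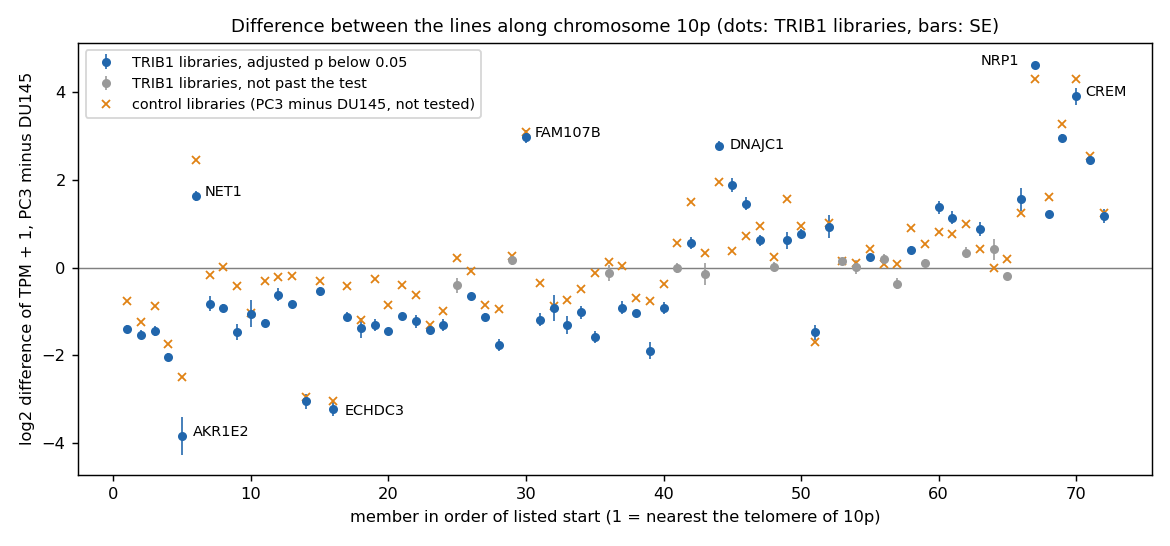
Log2 difference of TPM + 1 between PC3 and DU145 (vertical axis, PC3 minus DU145) for the 72 members in the order of their listed starts (horizontal axis); dots are the TRIB1 libraries with SE bars (limma, n = 2 a group) and crosses the control libraries, shown without a test. The last 6 members, from NRP1 on, are all higher in PC3, at up to 4.62 for NRP1.

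The 6 members nearest the centromere, NRP1, PARD3, CUL2, CREM, CCNY and ZNF33A, were all higher in PC3, with a median log2 difference of 2.70. This stretch starts at NRP1, the member with the largest difference, and was not set in advance. Its count and median are therefore a description without a test. NRP1 (ENSG00000099250, minus strand, listed at 33466420 to 33623564) had 331 and 320 TPM in PC3 TRIB1 against 12.4 and 12.2 TPM in DU145 TRIB1, 26.4-fold higher (log2 difference 4.62, SE 0.06, limma adjusted p = 8.2e-07). CREM, a transcription factor of the cAMP response, had 182 and 179 TPM against 9.12 and 13.7 TPM, 15.8-fold higher (3.89, adjusted p = 4.1e-05). CUL2, the scaffold of the VHL ubiquitin ligase, had 142 and 131 TPM against 17.0 and 16.6 TPM, 8.12-fold higher. The PC3 libraries of these genes were many times above the DU145 ones. CCNY, a membrane-bound cyclin, had 101 and 86.4 TPM against 15.3 and 17.2 TPM, 5.77-fold higher, and PARD3 and the zinc finger gene ZNF33A were 2.36- and 2.44-fold higher. In the controls, where the members were chosen and nothing was tested, the same 6 had a median log2 difference of 2.90.

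Higher members elsewhere on the arm were FAM107B, DNAJC1, COMMD3, NET1, EPC1 and COMMD3-BMI1. FAM107B had 44.7 and 42.5 TPM in PC3 TRIB1 against 4.87 and 4.44 TPM in DU145 TRIB1, 9.37-fold higher, and it and NET1, at 79.1 and 65.8 TPM against 23.1 and 22.0 TPM, were the 2 that were higher inside the run. EPC1, a subunit of the NuA4 histone acetyltransferase, had 21.8 and 13.8 TPM against 5.85 and 4.73 TPM (log2 difference 1.55, limma adjusted p = 0.0037). DNAJC1 was 8.25-fold higher in PC3 TRIB1. FAM107B and DNAJC1 reached the chosen level in PC3 controls alone, so that a higher value in PC3 was favoured by the choice of members.

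The members with the largest lower values in PC3 TRIB1 were at or near 0 there. ECHDC3, a mitochondrial protein with an enoyl-CoA hydratase domain, had 0.0744 and 0.0357 TPM in PC3 TRIB1 against 9.52 and 8.27 TPM in DU145 TRIB1 (log2 difference -3.23, limma adjusted p = 3.2e-05). CELF2, a regulator of alternative splicing, was listed at 0 in both PC3 TRIB1 libraries and had 7.02 and 7.51 TPM in DU145 TRIB1. AKR1E2, an aldo-keto reductase, was listed at 0 in 1 PC3 TRIB1 library and at 1.11 TPM in the other, against 19.0 and 20.6 TPM in DU145 TRIB1 (-3.84, adjusted p = 0.00078). These members reached the chosen level in DU145 alone. WDR37, with 4.60 and 4.16 TPM against 20.3 and 21.9 TPM, was 4.82-fold higher in DU145 TRIB1 than in PC3 TRIB1, and HACD1, with 7.76 and 5.90 TPM against 31.8 and 24.6 TPM, 4.13-fold. The others with the largest negative differences were RP11-295P9.3 (-1.76), whose interval overlaps PRPF18 so that its value is uncertain, FAM171A1 (-1.58), LARP4B (-1.53), PRTFDC1 (-1.48), which resembles a purine salvage enzyme, and FBH1 (-1.47). All 20 members named for this comparison passed whichever library was left out.

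By role, the line differences are counted over the 58 members at the chosen level in both lines, beside 29.0% of all genes lower and 20.8% higher in PC3 TRIB1. Of 9648 other protein-coding genes at that level in 1 or both lines, 3722 were lower and 2941 higher. In RNA processing and translation 7 of 8 were lower in PC3 TRIB1, and MTPAP, the mitochondrial poly(A) polymerase, was higher. All 7 lie in the run nearest the telomere and MTPAP lies after it. In DNA replication, repair and mitosis 4 of 5 were lower, and MASTL did not pass. These 4 also lie in the run and MASTL after it, so in both lists role and position cannot be told apart. Metabolism and mitochondria had 5 lower and 2 higher of 10. Membrane traffic, cytoskeleton and adhesion had 7 lower and 6 higher of 17. In ubiquitin, chaperones and protein turnover CUL2 and COMMD3 were higher and HSPA14, an HSP70 protein at the ribosome, was lower, of 4. Transcription and chromatin had 3 higher and 2 lower of 7. In signalling CCNY was higher and IL15RA, a subunit of the interleukin-15 receptor, lower.

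In the control libraries the members' median log2 difference between PC3 and DU145 was 0.02, and 13 members were higher in PC3 by a log2 of more than 1 and 9 lower, where 12.1% and 19.7% of all genes were. These libraries chose the members, so nothing is read from the counts. The spread ran from -3.03 in ECHDC3 to 4.30 in NRP1 and CREM. GDI2 stood at 69.5 and 61.7 TPM in PC3 controls against 63.6 and 65.9 TPM in DU145 controls, and FAM171A1 at 27.2 and 31.5 TPM against 31.8 and 31.8 TPM.

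The 11 genes of the arm that GENCODE 29 lists as coding and the deposited table under another biotype were PITRM1, KLF6, ASB13, GATA3, PROSER2, BEND7, SUV39H2, NMT2, CCDC7, ZNF248 and ZNF37A. Of the 8 inside the run, 5 had a PC3 change below 0 and 3 above, so the run of negative values does not include every gene in that stretch. ASB13, a substrate receptor of a ubiquitin ligase, had 3.16 and 3.17 TPM in PC3 TRIB1 against 9.82 and 9.49 TPM in controls (log2 change -1.35, limma adjusted p = 0.0015). PITRM1, a mitochondrial peptidase, had 31.2 and 29.4 TPM against 48.9 and 48.9 TPM (-0.67, adjusted p = 0.0029), and SUV39H2, a histone H3 methyltransferase, fell by 0.54. KLF6, a zinc finger transcription factor, had 46.3 and 44.6 TPM against 31.6 and 35.7 TPM (0.42, adjusted p = 0.039), and PROSER2 35.0 and 35.4 TPM against 16.1 and 24.7 TPM (0.79, adjusted p = 0.047). GATA3, a transcription factor of epithelial and T cells, had 12.6 and 17.1 TPM against 9.14 and 5.50 TPM, a change of 0.95 that missed the threshold (adjusted p = 0.087). With members taken by the GENCODE 29 biotype, which adds these genes and drops RP11-295P9.3, 28 of 82 changed in PC3, 21 of them lower.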

How the data were processed

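Per the file itself, the deposited table gives TPM per gene for 8 libraries, each summing to 1000000, so library totals and depth are unknown and no counting interval was computed. TopHat2 2.0.14, HTSeq, DESeq, edgeR and hg38 appear in the submitters' processing notes. The tool that made the TPM values, the strand setting and the gene lengths are not stated there. No count test was run, since TPM are not counts. None of the listed member starts equals its GENCODE 29 start on GRCh38 (0 of 72), so the build of the listed intervals is not stated, and they are printed as listed. Of the member symbols 6 were brought up to date.

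The 25982 genes whose mean reached 1 TPM in 1 or more groups were fitted with limma 3.58.1 (R 4.3.3) on log2(TPM + 1) with a mean-variance trend, 4 group means and 4 residual degrees of freedom, with Benjamini-Hochberg adjustment over all of them. This scale understates the change of low genes. Rose and fell mean an adjusted p below 0.05. Whether the 2 libraries of a group came from separate cultures or infections is not in the labels. The p-values therefore cover library-to-library spread alone, and that spread may be technical. Replicate libraries correlated at 0.9289 to 0.9581 and none held identical values. The procedure was tested on simulated data.

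The members, role lists and tests were chosen with earlier results of these data known. The genes described were those past the test (up to 12 by size a line), the differences between lines with the smallest p (up to 8), the 10 largest line differences a direction, the 2 highest and the 2 most different between lines in each role list, the members at the 5 TPM level, the first and last member and head-to-head pairs. Other members past the test and the genes of another biotype were named after their values were seen. Alternatives were other pseudocounts, filters, scalings, trend, block, single libraries left out, other member levels and, chosen after seeing the data, the biotype of GENCODE 29. A member and a marker gene that these rules name are not reported here.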

Additional observations from a re-analysis of the deposited data

Results flagged for a closer look

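The change with TRIB1 differed between the lines by the test of the difference for 14 members. The DU145 change minus the PC3 change was 0.63 on the log2 scale for ZMYND11, 0.81 for NET1, 0.94 for GDI2, 0.96 for RBM17 and 0.65 for ATP5F1C. It was 0.70 for UPF2, 1.05 for SEC61A2, 0.61 for NUDT5, 0.69 for CDC123 and 0.57 for SEPHS1. FAM171A1 had a difference of 1.46 and NEBL of 0.93. The opposite sign was seen for DNAJC1, at -0.84, and for COMMD3, at -1.49. The groups hold 2 libraries each, too few to look for single libraries far from the rest of their group.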

How the results depend on the processing

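No member named for a test changed sign under an alternative: of 1102 values, 883 stayed past the threshold and 219 did not. With 1 library left out, PC3 changes counted 9 to 19 (3 to 5 higher, 5 to 14 lower), DU145 changes 1 to 4 (1 to 3 higher, 0 to 1 lower), differences between the changes 3 to 11 (3 to 11 higher, 0 to 2 lower) and line differences 51 to 56 (18 to 21 higher, 33 to 35 lower). The medians then ran from -0.24 to -0.16 in PC3, 0.14 to 0.20 in DU145, -0.53 to -0.43 between the lines with TRIB1 and -0.07 to 0.11 between the controls. For the named members a change of sign was unlikely from the start. Some settings, such as the filters, the trend and the block, leave an estimate unchanged. The members were also named for passing in these same data, so the kept signs are no separate support.

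With a replicate block within each line, 8 members changed in PC3 (3 higher, 5 lower; 35 at an unadjusted p below 0.05), 0 in DU145 (0 higher, 0 lower; 23 unadjusted) and 0 in the difference (0 higher, 0 lower; 34 unadjusted). Same-numbered libraries did not deviate together (correlations of -0.042 in DU145 and -0.01 in PC3), so the numbers were not taken as pairs, and the loss is not read as a weaker effect.

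The PC3 libraries alone gave 11 changes (7 lower) and the DU145 libraries alone 0 (0 in each direction). Without a trend DU145 had 2 changes (2 higher, 0 lower) and the difference 9 (7 higher). Protein-coding genes alone gave 14 in DU145 (12 higher, 2 lower) and 27 differences (24 higher). Median-of-ratios scaling gave 8 rises in PC3 and medians of 0.24 in DU145, -0.29 between the lines with TRIB1 and 0.23 between controls, and upper-quartile scaling 0.23 in DU145 and -0.40 between the lines. A member level of 10 TPM gave medians of -0.30 in PC3 and -0.63 between the lines, and 1 TPM gave -0.15 and -0.37. Members before 30000000 gave -0.30 in PC3, -0.91 between the lines and -0.18 between controls, and the GENCODE 29 biotype -0.37 between the lines. The causes were not tested.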
